A study of Mus musculus with 6 samples.

Results

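The AP-1 transcription factors were examined as 10 genes, taken from the table of all probe sets by gene symbol, older alias or gene identifier. They are *Jdp2*, *Fos*, *Fosb*, *Fosl1*, *Fosl2*, *Jun*, *Junb*, *Jund*, *Atf3* and *Batf*, with 16 probe sets between them, out of 15364 genes and 33142 probe sets. *Jdp2* lies near *Alkbh1* on chromosome 12, and the question was whether the other AP-1 genes move with it. The series compared undifferentiated mouse embryonic stem cells (mESCs) of both genotypes, wild type (WT) and *Alkbh1*-/-, on Affymetrix arrays, with 3 arrays per genotype. All cells had a C57BL/6 background and were taken untreated at passage 8 and day 0, in medium with LIF. By the study's methods, the lines came from littermate blastocyst-stage embryos of heterozygous parents and were cultured on irradiated mouse fibroblasts as feeder cells. The names of the arrays carry 1 line name per genotype, so that genotype and line cannot be told apart, and p-values measure only the spread between these arrays. ALKBH1 is an AlkB-family dioxygenase. The *Alkbh1* transcript was strongly reduced in the arrays labelled *Alkbh1*-/-, with a log2 difference of −4.89 from WT at its brightest probe set (1434660_at).

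AP-1 is not a single protein but a set of dimers of basic leucine zipper (bZIP) proteins. A JUN protein can pair with itself or with a FOS protein, while FOS proteins need a partner, and the dimers bind a short DNA element known as the TRE, or a related one, the CRE. *Fos*, *Jun* and their relatives are immediate early genes, which growth factors and stress induce within minutes through MAP kinases. JDP2, ATF3 and BATF carry the same kind of zipper but can hold AP-1 sites in a repressed state. JDP2, Jun dimerization protein 2, recruits histone deacetylase activity to such sites and is also known for its action on histones themselves.

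No value below is that of a single array. Each comes from the authors' deposited comparison, in which a probe set, a group of short oligonucleotides for a transcript, has a log2 difference of *Alkbh1*-/- minus WT and a mean log2 intensity over all arrays. Group means and standard errors (SE) were computed from these columns. A gene is given by its brightest probe set, and it is called where the adjusted p of limma's moderated test was under 0.05 and the linear fold over 1.5, which is 0.58 on the log2 scale. Over all 33142 probe sets, mean log2 intensities ran from 3.22 to 14.67 with a median of 6.31, and the median SE was 0.11. *Oct4* (*Pou5f1*) and *Sox2*, which mark pluripotent cells, had computed mean log2 intensities of 12.6 and 12.5 in WT mESCs. Brightness depends on the probes, so a level is compared between genotypes and not between genes.

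Among the AP-1 genes, *Jdp2* was higher and *Fosl1* lower in *Alkbh1*-/- mESCs, and the other 8 were not called. *Jdp2* rose 5.73-fold and *Fosl1* fell to 0.497 of its WT level. With 1 of 10 members called higher and 1 of 10 called lower, the counts stand beside 4.45% of all genes called higher and 4.07% called lower. X-linked genes, of which 40.3% were called higher, are part of the 4.45%, while the members lie on other chromosomes. Leaving out *Jdp2*, the gene around which the group was set, 0 of 9 were called higher and 1 of 9 lower. Without the fold threshold the same members had an adjusted p under 0.05, against 16.1% of all genes. An unadjusted p under 0.05 was found for 31.6% of all genes, and 55.2% of all genes had a difference below 0. The members' median log2 difference was −0.04, and that of all genes −0.03. Of the 9 members other than *Jdp2*, 3 had a difference above 0 and 6 below 0. For 8 of the 10 members, the 95% confidence interval of the difference included 0 at the probe set used. Other probe sets of *Fosb*, *Fosl2* and *Jun*, given below, had intervals wholly below 0, though none of them was called.

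**Figure D1:**
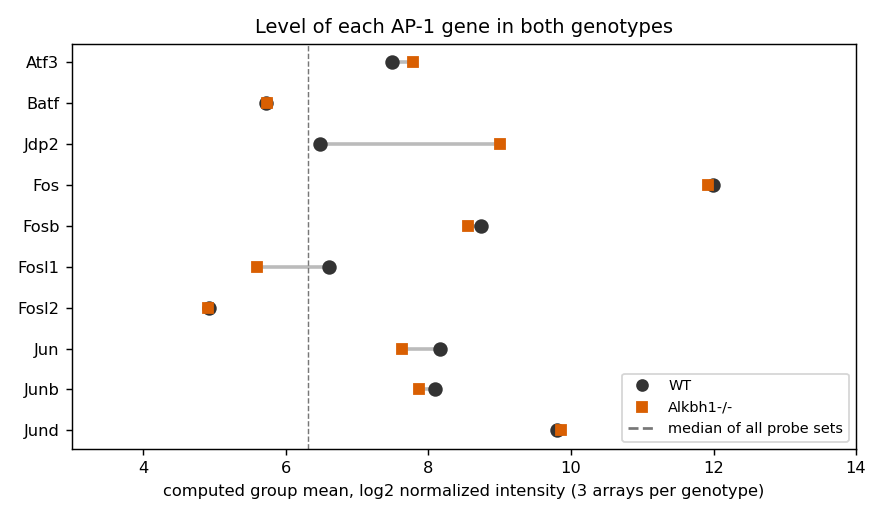
Computed group means of the log2 intensity (horizontal axis) for the probe set used for each AP-1 gene, in WT (circles) and *Alkbh1*-/- mESCs (squares), 3 arrays per genotype, with the median of all probe sets as a dashed line. The means of *Jdp2* lie far apart, at 6.49 and 9.005, those of *Fosl1* at 6.60 and 5.59, and those of *Fos*, *Jund*, *Batf* and *Fosl2* nearly coincide; errors of the differences are in the plot of log2 differences by probe set.

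*Jdp2* was measured by probe set 1450350_a_at, whose computed mean log2 intensity was 6.49 in WT and 9.005 in *Alkbh1*-/- mESCs. On the linear scale, the authors' geometric means for the same probe set were 89.6 and 514. In WT mESCs the probe set thus lay close to the median of all probe sets, and in *Alkbh1*-/- mESCs well above it. The log2 difference was 2.52 ± 0.20 (SE, n = 3 arrays per genotype; 95% confidence interval 2.04 to 3.00, limma adjusted p = 0.000604). By the size of its rise, *Jdp2* was number 26 of the 15364 genes, and number 15 of the 14840 genes not on the X chromosome. A further probe set carrying the gene's older symbol, 1424972_at, had a mean log2 intensity of 4.02, brighter than only 7.06% of probe sets. It differed by 0.18 (95% confidence interval −0.06 to 0.42, adjusted p = 0.314, same test), so that the rise of *Jdp2* rests on 1 probe set. The suffix of that probe set marks probes shared by several transcripts of a gene.

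*Atf3* and *Batf* encode the other small bZIP proteins of the group. *Atf3*, a stress-induced factor, had computed mean log2 intensities of 7.49 in WT and 7.79 in *Alkbh1*-/- mESCs. The log2 difference of 0.30 had a 95% confidence interval from −0.20 to 0.80 (limma adjusted p = 0.433), which leaves room for a rise past the fold threshold. *Batf*, best known from lymphocytes, had computed means of 5.72 and 5.73. Its interval was narrow, from −0.20 to 0.21 (adjusted p = 0.981, same test), and a 1.5-fold change in either direction lay outside it. The *Batf* probe set was below the median of all probe sets, however, and at a low signal a change of the transcript may be understated. The upper bound of 0.80 for *Atf3* was the highest among the 9 other members, and the lower bound for *Jdp2* was 2.04.

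Of the 4 FOS subunits, 1 was called, *Fosl1*, which was lower in *Alkbh1*-/- mESCs. Over all genes, 4.07% were called lower and 4.45% higher. At the probe sets used for *Fos*, *Fosb* and *Fosl2*, the intervals included 0. *Fosl1* encodes FRA-1, a FOS protein that lacks the strong activation domain of FOS. Its brighter probe set, 1417487_at, had computed mean log2 intensities of 6.60 in WT and 5.59 in *Alkbh1*-/- mESCs, and the authors' geometric means were 97.0 and 48.2. The log2 difference was −1.01 ± 0.17 (SE, n = 3 arrays per genotype; 95% confidence interval −1.41 to −0.61, limma adjusted p = 0.00966). At the dimmer one, 1417488_at, the log2 difference was −0.65 (adjusted p = 0.00782, same test), and thus both probe sets of *Fosl1* passed the thresholds in the same direction. Both lay below the median of all probe sets, however, with mean log2 intensities over all arrays of 6.10 and 4.75. Without moderation of the variances, the adjusted p was 0.0773 at the brighter probe set, where the call was lost, and 0.0482 at the dimmer one.

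*Fos*, the prototype of the family, was bright in both genotypes, with computed mean log2 intensities of 11.99 in WT and 11.93 in *Alkbh1*-/- mESCs. Its log2 difference of −0.06 had a 95% confidence interval from −0.48 to 0.36 (limma adjusted p = 0.884). A change of *Fos* by 1.5-fold therefore lay outside the interval in either direction. *Fosb* is the closest relative of *Fos* and, like it, an immediate early gene. By symbol its brightest probe set was 1426819_at, with a log2 difference of −0.18 (95% confidence interval −0.46 to 0.11, adjusted p = 0.417, same test). The gene identifier beside that symbol is that of *Hipk3*, a kinase, so the assignment is uncertain. The probe set whose symbol and identifier both name *Fosb*, 1422134_at, differed by −0.55 on the log2 scale (95% confidence interval −1.07 to −0.04, adjusted p = 0.158, same test).

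*Fosl2* encodes FRA-2, a relative of FRA-1. Its named probe set, 1422931_at, was dim, with computed mean log2 intensities of 4.92 in WT and 4.91 in *Alkbh1*-/- mESCs. The log2 difference was −0.02 (95% confidence interval −0.30 to 0.27, limma adjusted p = 0.957). A brighter probe set, 1437247_at, is unnamed in the table of all probe sets and is given to *Fosl2* and a similar locus by the annotation of the authors' other table. It had a log2 difference of −0.94 with a wide 95% confidence interval, from −1.79 to −0.10 (adjusted p = 0.145, same test). The probe sets of *Fosl2* thus did not give the same picture, and neither passed the threshold.

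Of the 3 JUN subunits, which can form AP-1 without a FOS partner, 0 were called. The shares over all genes were 4.45% called higher and 4.07% called lower. *Jun* had computed mean log2 intensities of 8.16 in WT and 7.63 in *Alkbh1*-/- mESCs at probe set 1417409_at. The log2 difference of −0.52 had a 95% confidence interval from −1.09 to 0.05 (limma adjusted p = 0.221). At the dimmer probe set of *Jun*, 1448694_at, the log2 difference was −0.59 (95% confidence interval −1.03 to −0.15, adjusted p = 0.0866, same test). *Junb*, which often opposes JUN at shared sites, had a log2 difference of −0.22 (95% confidence interval −0.67 to 0.22, adjusted p = 0.514, same test). *Jund*, the member that is expressed broadly and without induction, had computed means of 9.81 and 9.85. Its log2 difference was 0.05 (95% confidence interval −0.36 to 0.45, adjusted p = 0.905, same test), and its other probe sets were at −0.03 and 0.08. The SE exceeded the median of all probe sets for 9 of the 10 members and was largest for *Jun*, at 0.24.

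**Figure D2:**
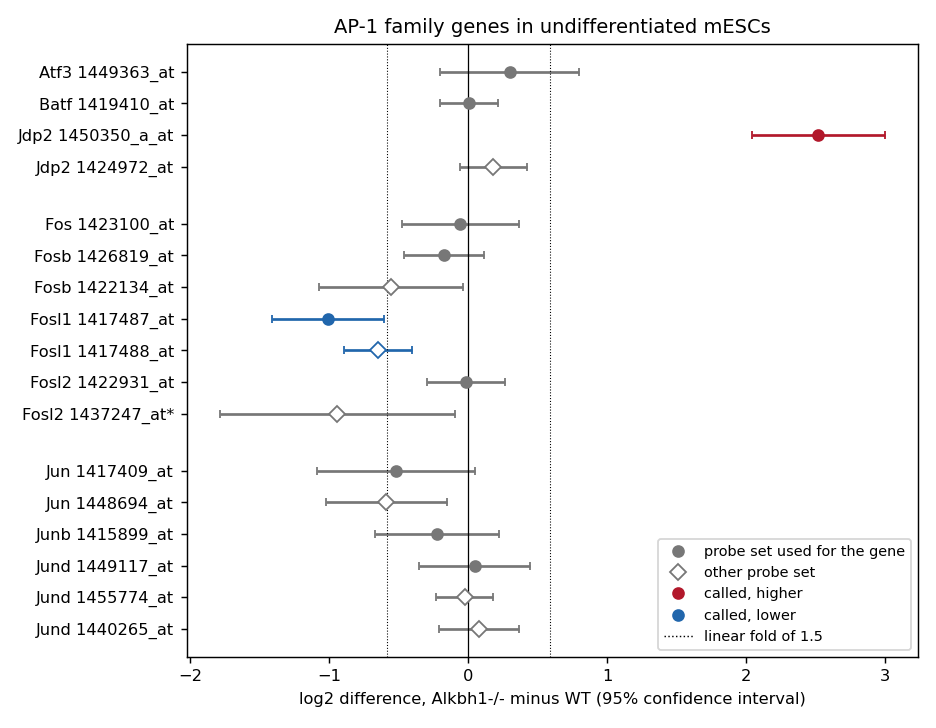
Log2 difference, *Alkbh1*-/- minus WT, with its 95% confidence interval (horizontal axis), for every probe set of the AP-1 genes; filled circles are the probe sets used for a gene, open diamonds the others, dotted lines a linear fold of 1.5, and the asterisk marks the probe set that only the class comparison gives to *Fosl2*. The interval of *Jdp2* at 1450350_a_at, from 2.04 to 3.00, lies apart from all others, and both probe sets of *Fosl1* lie on the lower side.

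*Jdp2* was then set against its neighbours on the chromosome, because *Fos* and *Batf* flank it. In the order of analysed genes on chromosome 12 in RefSeq assembly GRCm38.p6, *Fos*, *Jdp2* and *Batf* follow each other directly, and *Alkbh1* comes 22 analysed genes after *Jdp2*. The genes on either side of *Jdp2* had log2 differences of −0.06 (*Fos*) and 0.01 (*Batf*), against 2.52 for *Jdp2*. Over the 20 analysed genes nearest to it, 10 on each side, the median log2 difference was 0.02 and the range −0.65 to 0.55. Of these 20, 0 were called higher and 1 was called lower by limma's moderated test (4.45% and 4.07% of all genes), and 5 had an unadjusted p under 0.05 (31.6% of all genes). The gene called lower was *Ift43*, a component of the transport machinery of cilia, at −0.65 (95% confidence interval −0.88 to −0.43, adjusted p = 0.00498, same test).

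Within 5 Mb of *Alkbh1*, 76 other genes had a named probe set. *Jdp2* was the 1 gene called higher among them (1.32%), and *Ift43* and *Vrtn* were the 2 called lower (2.63%). Over all genes the shares were 4.45% and 4.07%, and over the rest of chromosome 12 they were 2.82% and 5.64%. The 4.45% includes the X-linked genes, of which 40.3% were called higher. With counts this small, the shares are not read as a difference. *Vrtn*, vertnin, known for its part in vertebral number, had a log2 difference of −1.19 at a dim probe set (95% confidence interval −1.47 to −0.91, limma adjusted p = 0.00116). The median log2 difference of the 75 genes other than *Jdp2* was −0.02, as against −0.03 over the 461 analysed genes on the rest of chromosome 12. Without the fold threshold, 7 of the 76 had an adjusted p under 0.05, 3 higher and 4 lower, a smaller share than the 16.1% of all genes.

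**Figure D3:**
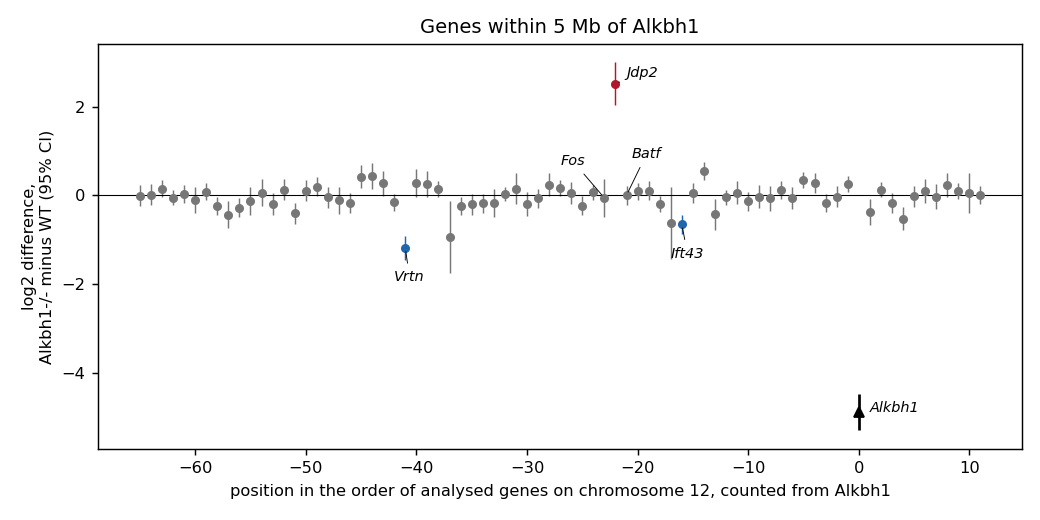
Log2 difference, *Alkbh1*-/- minus WT, with its 95% confidence interval (vertical axis), for the genes within 5 Mb of *Alkbh1* on chromosome 12 in their order along the chromosome, counted from *Alkbh1* (triangle); red and blue points are genes called higher and lower. *Jdp2* stands at 2.52 between *Fos* and *Batf*, which lie near 0.

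The sequences before the transcription starts of *Jdp2*, *Fos* and *Batf* are shown because these AP-1 genes are adjacent and, of them, only *Jdp2* was called. They are the 250 bases before a start, 5′ to 3′ on the plus strand, from RefSeq on GRCm38.p6, and the capitals mark the core of the CRE, TGACGT, or its reverse complement. For *Jdp2*, which has 3 such windows, the one that holds the core is given.
Jdp2 (chr12:85599166-85599415): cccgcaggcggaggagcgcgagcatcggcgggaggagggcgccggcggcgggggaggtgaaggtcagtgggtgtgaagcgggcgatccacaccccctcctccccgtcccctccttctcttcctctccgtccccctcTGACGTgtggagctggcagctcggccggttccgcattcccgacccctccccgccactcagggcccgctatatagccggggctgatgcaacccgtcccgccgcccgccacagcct
Fos (chr12:85473640-85473889): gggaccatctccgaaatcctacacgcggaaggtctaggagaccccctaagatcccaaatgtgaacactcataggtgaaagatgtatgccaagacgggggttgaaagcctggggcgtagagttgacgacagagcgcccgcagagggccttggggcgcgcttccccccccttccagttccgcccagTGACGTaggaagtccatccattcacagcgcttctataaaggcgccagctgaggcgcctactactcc
Batf (chr12:85686470-85686719): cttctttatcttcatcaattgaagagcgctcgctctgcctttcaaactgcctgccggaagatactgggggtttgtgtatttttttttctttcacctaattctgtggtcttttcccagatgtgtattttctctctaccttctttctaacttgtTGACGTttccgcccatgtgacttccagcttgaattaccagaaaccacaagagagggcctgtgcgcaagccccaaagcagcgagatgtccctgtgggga
The core starts 114 bases before the start of *Jdp2*, 66 before that of *Fos* and 98 before that of *Batf*. A window was found for 9 of the 10 members, in all 11 windows, and 4 of these hold the core on either strand, the fourth being that of *Atf3*. Of all 32851 windows of this length, 6.47% hold it. The full CRE, TGACGTCA, which contains the core, was in 0 windows of the members and in 1.55% of all windows. For the TRE, TGAGTCA, searched on both strands, the members had 0 windows with a match and all windows 4.46%. Of the 3 windows of *Jdp2*, only the one printed holds the core, and which start the measured transcript uses is not known here. Any part of the core in the differences was not tested.

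Genes around AP-1 were taken from 5 further lists with 70 analysed genes. In all, 1 of the 70 was called higher and 7 were called lower, against 4.45% and 4.07% of all genes. The median log2 difference over the 70 genes was −0.06, and that of all genes −0.03. Of the 17 other bZIP partners analysed, 0 were called higher and 1 lower by limma's moderated test, and 7 had an unadjusted p under 0.05, against 31.6% of all genes. The gene called was *Creb1*, the CRE-binding factor that responds to cyclic AMP, at −0.63 (adjusted p = 0.00718, same test). Its next brightest probe set was at −0.74 and passed too (adjusted p = 0.00108, same test). Its dimmer ones, at −0.24, −0.19 and −0.15, did not pass. The median log2 difference of these partners was 0.13, the highest of the 5 lists.

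Upstream of AP-1, MAP kinases and the serum response factor complex switch on *Fos* and *Jun*. Of 14 such genes analysed, 1 was called higher and 1 lower, against 4.45% and 4.07% of all genes, and the median log2 difference was −0.09. *Srf*, the factor that binds the serum response element of *Fos*, had a log2 difference of −0.60 (limma adjusted p = 0.0225), and its dimmer probe set was at −0.29. *Elk1*, its ETS-family partner and a target of ERK, had a log2 difference of 0.69 (adjusted p = 0.00590, same test). *Elk1* is X-linked, and of the 524 X-linked genes analysed 211 (40.3%) were called higher, with a median log2 difference of 0.47. Whether the rise of *Elk1* is part of that of the chromosome was not tested. Of the 9 co-regulators and turnover factors of JUN and FOS, which include *Hdac3*, the deacetylase recruited by JDP2, 0 were called by the same test (4.45% of all genes higher, 4.07% lower) and 1 had an unadjusted p under 0.05 (31.6% of all genes). Their differences lay between −0.28 and 0.16.

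Of 19 other immediate early genes, 4 were called lower and 0 higher by limma's moderated test, and 8 had an unadjusted p under 0.05. The shares over all genes were 4.07%, 4.45% and 31.6%. The genes called were *Gadd45g*, a stress sensor, at −1.07 (adjusted p = 0.0123), *Myc*, the growth regulator, at −0.72 (adjusted p = 0.00696), *Ccn2*, a matricellular protein also known as *Ctgf*, at −0.68 (adjusted p = 0.0260) and *Klf6*, a Kruppel-like factor, at −0.67 (adjusted p = 0.0341). At dimmer probe sets, *Gadd45g* was at −0.19 and *Ccn2* at 0.05, and neither was called. Of the dimmer probe sets of *Klf6*, the one at −0.66 passed (limma adjusted p = 0.0339). Those at −0.53, −0.56 and −0.16 did not. *Egr1*, the immediate early gene that shares serum response elements with *Fos*, was at −0.04 with an adjusted p of 0.936. The list's median log2 difference was −0.04, close to that of all genes. Of the 11 AP-1 target genes analysed, 1 was called lower and 0 higher, against 4.07% and 4.45% of all genes, and 2 had an unadjusted p under 0.05, a smaller share than the 31.6% of all genes. The differences of all 11 lay below 0, as did those of 55.2% of all genes, with a median of −0.32, and 10 of the 11 did not pass the test. The gene called was *Plaur*, the urokinase receptor, at −0.86 (95% confidence interval −1.06 to −0.65, limma adjusted p = 0.00125).

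Markers of fibroblasts, the cells of the feeder layer, did not pass the main test as single genes. With limma's trend option, *Col1a1* (−1.06, adjusted p = 0.0402) and *Col3a1* (−0.88, adjusted p = 0.0367) passed, and the other markers did not. The log2 differences of all 16 analysed lay below 0, as did those of 55.2% of all genes, with a median of −0.70. By limma's moderated test 0 of them passed at an adjusted p of 0.05, against 16.1% of all genes, and 6 passed at an unadjusted p of 0.05, against 31.6% of all genes. Their median SE was 0.31, against 0.09 for the pluripotent cell markers and 0.22 for the AP-1 target genes. The median of their computed mean log2 intensities was 7.65 in WT and 6.89 in *Alkbh1*-/- mESCs, and the brightest of them, *Fn1*, *Col1a2* and *Acta2*, had log2 differences of −0.38, −0.84 and −0.84. The markers were thus present in both genotypes. Whether the share of fibroblasts differed between the genotypes was not tested. In these bulk samples, the number of fibroblasts, their RNA per cell and expression of the markers by other cells cannot be told apart. Fibroblasts express *Fosl1*, *Jun* and several AP-1 target genes too. The part of feeder cells in the lower level of *Fosl1* was not tested.

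**Figure D4:**
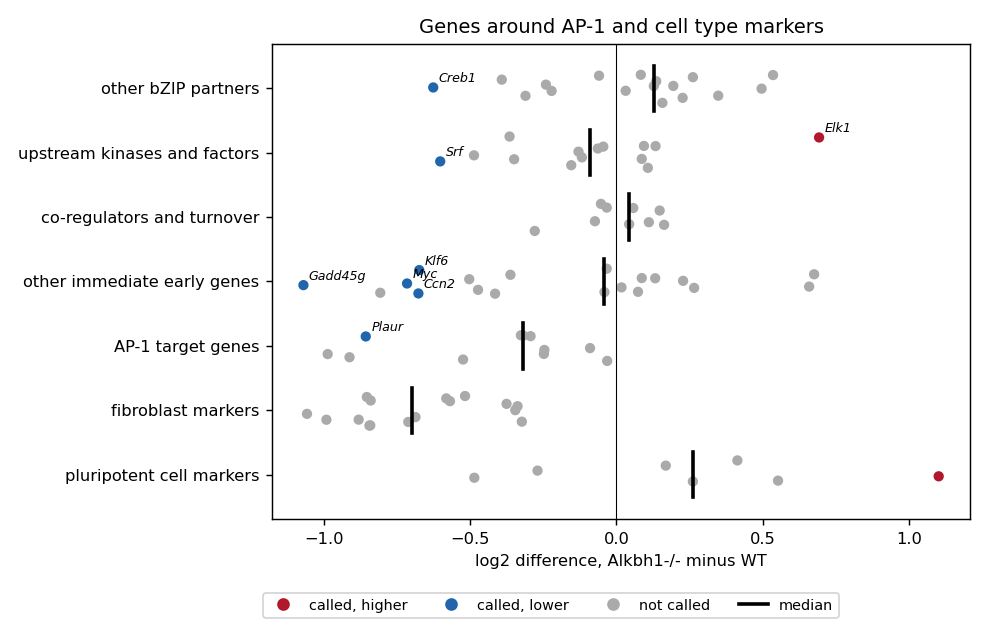
Log2 difference, *Alkbh1*-/- minus WT (horizontal axis), of each gene at its brightest probe set in the lists around AP-1 and in the marker lists; black bars are the lists' medians, points are spread vertically for legibility, and called genes of the AP-1 lists are named. The AP-1 target genes and the fibroblast markers lie wholly below 0, with medians of −0.32 and −0.70.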

How the data were processed

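Gene expression was measured with Affymetrix Mouse Genome arrays in 3 WT and 3 *Alkbh1*-/- samples of mESCs, grouped by their titles. The authors normalized the arrays together with RMA and deposited a table of 33142 probe sets with log2 values, the difference between the genotypes and the mean over the arrays. The same deposited table gives a score, the moderated t statistic, with a raw and an adjusted p-value. The filter behind the 33142 is not given in the sources used here. A second table deposited by the authors, a class comparison, gives geometric mean intensities per genotype. Of its 4326 entries, 4261 matched the larger table in difference and mean within 0.0001, but only 8 of these under the same identifier, so it was joined by value, used for the direction of the difference and for the intensities printed, and its annotation was used by identifier. A statement that accompanies the tables says that its column named C1 holds WT.

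The planned limma fit to single arrays was replaced by the deposited statistics, since the tables hold none. The statistic has the opposite sign to the difference at all 33142 probe sets, so SEs were computed as the size of difference over statistic, and 95% intervals with 7.14 degrees of freedom (4 residual, 3.14 prior). Group means are the overall mean plus or minus 0.5 times the difference. From the recovered variances (prior variance 0.0160), an unmoderated test, limma's trend option and treat were run. Recovery was tested on simulated data. Adjustment was by Benjamini-Hochberg over all probe sets.

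Probe sets were named by gene identifier, accession, then symbol with RefSeq GRCm38.p6 (28227 named, 85.2%), and for the AP-1 genes by symbol first. A gene takes the probe set with the highest mean. Alternatives changed the test, the thresholds, the probe set, a filter on dim probe sets and the window around *Alkbh1*. The number of arrays limits the precision. The genes named are the 10 members, genes of the pathway lists and of the 5 Mb window that were called, *Alkbh1*, *Pou5f1*, *Sox2* and the 3 brightest fibroblast markers. *Egr1*, *Hdac3*, *Hipk3*, *Col1a1* and *Col3a1* are named outside this rule. The members and lists were chosen with earlier results of these data known. Computations used limma 3.58.1 in R 4.3.3, with SciPy 1.17.1 and pandas 2.3.3 in Python 3.11.15, and plots matplotlib 3.10.9.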

Additional observations from a re-analysis of the deposited data

How the results depend on the processing

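The call of *Jdp2* held under the unmoderated test, the trend option, treat, either fold setting, the unadjusted p, the lowest-p probe set and the filter on dim probe sets, with adjusted p from 6.50e-05 to 0.0213 among the tests. It was lost only with probe sets that carry no s, x or a suffix, where the dim probe set at 0.18 stands for the gene (adjusted p = 0.314). The 2 AP-1 genes called became 1 under the unmoderated test, treat, a log2 difference over 1.5 and the filter on dim probe sets (*Jdp2* alone), and 1 without suffixes (*Fosl1* alone). With the other probe sets of *Fosb* and *Fosl2*, an alternative chosen after seeing the data, the count stayed at 2. The 3 of 76 genes called near *Alkbh1* became 1 under treat and at a log2 difference over 1.5 (*Jdp2*). They became 1 of 67 without suffixes (*Vrtn*) and 7 of 76 with no fold threshold (16.1% of all genes). Within 2 Mb, 2 of 30 genes were called, and within 10 Mb, 4 of 116. The 8 pathway genes called became 3 under the unmoderated test and 3 without suffixes, and 0 under limma's treat and at a log2 difference over 1.5. With an unadjusted p under 0.05 and the same fold threshold they were 10. The share of all genes called was not counted under these settings, so these counts are not compared with it. The call of *Fosl1* was kept in 5 alternatives and lost in 3. The filter on dim probe sets removed *Fosl1*, *Fosl2* and *Batf*, so they were not tested there, and 7 members remained. The members not called stayed so, with the same direction, in every alternative that kept them. Most alternatives keep the probe set and its difference, so that the direction could not change. Treat and the log2 difference over 1.5 are also stricter than the main call, so they could not add one. No paired analysis was possible because the tables carry no values of single arrays, and leaving out single replicates was not run for the same reason.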
